A study of Mus musculus with 12 samples.

Results

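The loci of Pou5f1 and Nanog were examined for SOX2 occupancy in mouse embryonic stem cells in mitosis and in asynchronous growth. Every listed SOX2 region with its midpoint within 150 kb of the RefSeq span of either gene was taken, after entries with identical coordinates had been merged. This gave 0 of the 84 mitotic regions and 14 of the 10351 asynchronous regions, 7 at each gene. The cells were the E14 line, and 12 libraries formed 4 groups of 3 replicates. In the mitotic groups, SOX2 ChIP and input DNA came from cells held overnight in nocodazole, a microtubule poison, and sorted after fixation for staining of H3S10p, a mark of condensed chromosomes. In the asynchronous groups, SOX2 ChIP and input DNA came from the growing population, for which the labels give no arrest or sort. All groups grew with 10% serum, leukemia inhibitory factor, 3 μM CHIR99021, a GSK3 inhibitor, and 0.8 μM PD184352, a MEK inhibitor. Each condition had a single list, called with all 3 replicates together, at a q-value read from the deposited names as 0.05 for mitotic cells and 0.01 for asynchronous cells. Counts, positions and widths therefore carry no replicate error, no test between the conditions was made, and all comparisons are descriptions. Coordinates are on mm10.

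Pou5f1 encodes the POU-domain factor OCT4, which binds DNA together with SOX2 at composite elements made of a SOX site beside an octamer-like site. Nanog encodes a homeodomain factor of the same circuit, in which the core factors bind the regulatory DNA of their own and each other's genes. In mouse embryonic stem cells Pou5f1 transcription is known to depend on enhancers upstream of the gene, and the Nanog promoter is known for a composite SOX and octamer element.

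The promoter sequences are shown because the genes differed in whether a SOX2 region covered them. RefSeq (GRCm38.p6, the assembly of mm10) places Pou5f1 at chromosome 17, 35506032 to 35510777, and Nanog at chromosome 6, 122707489 to 122714633, both on the plus strand. The windows run from 250 bases before to 50 bases after an annotated start, 300 bases in all. Pou5f1 has a start at the first base of its span (chr17:35505782-35506081) and another inside it (chr17:35508557-35508856). Nanog has a start at the first base of its span (chr6:122707239-122707538) and another 76 bp further on, whose window overlaps the first. Capitals mark the composite element in Nanog and the SOX core in the inner window of Pou5f1, all on the plus strand, 5′ to 3′.
Pou5f1 upstream start: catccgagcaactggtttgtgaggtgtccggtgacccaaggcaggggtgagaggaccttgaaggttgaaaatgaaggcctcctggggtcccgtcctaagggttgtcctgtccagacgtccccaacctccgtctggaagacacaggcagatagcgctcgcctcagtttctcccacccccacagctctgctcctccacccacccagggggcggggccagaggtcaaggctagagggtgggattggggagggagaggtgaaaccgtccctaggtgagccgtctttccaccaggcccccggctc
Pou5f1 inner start: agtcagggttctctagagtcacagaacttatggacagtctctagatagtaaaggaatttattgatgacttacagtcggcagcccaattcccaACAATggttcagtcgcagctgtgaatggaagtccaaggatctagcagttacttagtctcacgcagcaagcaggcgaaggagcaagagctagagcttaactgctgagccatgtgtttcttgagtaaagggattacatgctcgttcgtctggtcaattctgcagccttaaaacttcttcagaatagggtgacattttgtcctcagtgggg
Nanog first start: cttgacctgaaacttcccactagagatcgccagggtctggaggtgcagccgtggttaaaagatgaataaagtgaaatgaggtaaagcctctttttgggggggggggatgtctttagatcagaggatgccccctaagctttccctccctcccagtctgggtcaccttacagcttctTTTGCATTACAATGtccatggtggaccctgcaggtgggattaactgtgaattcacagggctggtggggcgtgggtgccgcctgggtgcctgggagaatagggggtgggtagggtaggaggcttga

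Motifs were searched on both strands: the SOX core ACAAT, its longer form ACAATG, the octamer ATGCAAAT, its shortened form ATGCAAA, and the composite, spelled CATTGT, then any single base, then ATGCAAA. The composite contains the shortened octamer and, on the other strand, the longer SOX form. The Nanog window held the composite, read on the minus strand, at chromosome 6, 122707414 to 122707427, beginning 75 bp before the first start. The element lay inside an asynchronous SOX2 region, 31.5 bp from its midpoint. Of 32851 promoter windows in the table, 2 held the composite, and both were windows of Nanog that share this site. The spelling was chosen with this known element in mind, so its match at Nanog is not independent. The Pou5f1 upstream window held none of the motifs, and the inner window held a single ACAATG, at chromosome 17, 35508649 to 35508654, outside any region. ACAATG was present in 12.6% and the SOX core in 31.0% of all windows, the octamer in 1.74% and the shortened octamer in 4.63%.

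Both Nanog windows lay wholly inside an asynchronous region, while neither Pou5f1 window touched one. The nearest region to the upstream Pou5f1 window ended 1374 bp before it, and the nearest to the inner window began 1373 bp after it. No promoter window of either gene overlapped a mitotic region, as 0.0122% of all windows did. Among all windows, 1.56% overlapped an asynchronous region and 0.155%, or 51 windows of 49 genes, lay wholly inside one. Of those 51, 43.1% held ACAATG and 27.5% the shortened octamer, with both Nanog windows and their shared site counted in each. Of the 512 windows that overlapped a region, 26.8% held ACAATG and 7.42% the shortened octamer. Of 25 promoter windows of genes wholly within the 2 loci, the Nanog windows were the 2 that overlapped a region. The Nanog neighbours Dppa3, Gdf3 and Slc2a3 had no promoter window in the table, so their starts were not examined. The first start of Cdsn, a gene of skin adhesion, came close, with 218 bp between its window and a region inside the gene.

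**Figure D1:**
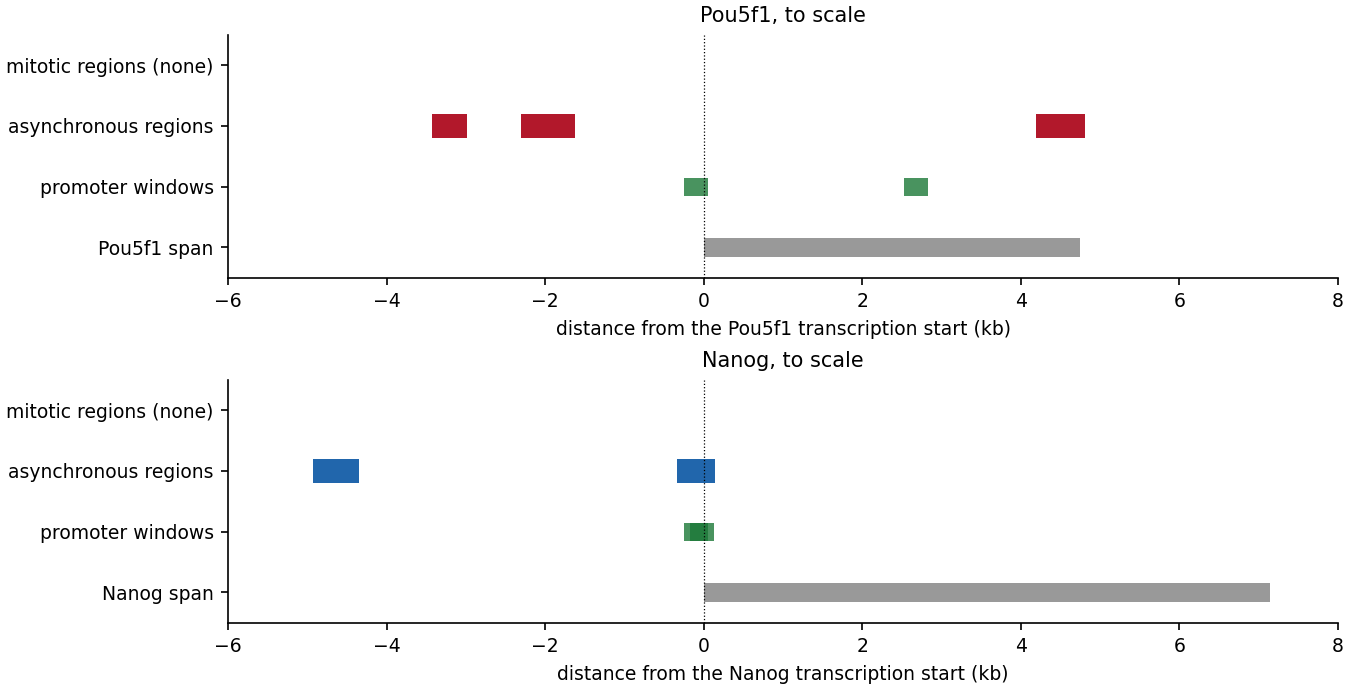
Pou5f1 and Nanog drawn to scale, with distance from the transcription start in kb on the x axis; rows show mitotic regions (none), asynchronous regions, promoter windows and the gene span. The regions flank Pou5f1 and reach across its far end, and 1 region sits on the start of Nanog with another 4.64 kb before it.

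Mitotic cells had no SOX2 region in either window. The nearest mitotic region to Pou5f1 lay 4.04 Mb away inside Pde9a, a cGMP phosphodiesterase, at chromosome 17, 31463492 to 31463612, and was 121 bp wide. The nearest to Nanog lay 1.58 Mb away inside Mical3, at chromosome 6, 121130874 to 121131029, and was 156 bp wide. Across 19960 protein-coding genes on chromosomes with a mitotic region, the median distance was 9.35 Mb. Neither gene was therefore far from a mitotic region by this measure, with 27.9% of the genes nearer than Pou5f1 and 14.5% nearer than Nanog. Of all protein-coding genes, 1.95% had a mitotic region within 150 kb. A count of 0 allows up to 3.57% of the mitotic list by the limit of 3 counts, for counting error only. From the sizes of the lists alone, the 14 asynchronous regions would correspond to 0.114 mitotic regions, so an absence at these loci was not detectable.

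At Pou5f1, the listed asynchronous regions were densest on the gene and just upstream of it. The widest of the 7 regions spanned 679 bp, at chromosome 17, 35503729 to 35504407, and was centred 1.96 kb before the start. A region of 441 bp at 35502603 to 35503043 had its midpoint 3.21 kb before the start, and 685 bp separated the pair. Both lay within Gm32362, an annotated long noncoding RNA on the minus strand whose span ends 0.295 kb before that of Pou5f1. On the other side, a region of 613 bp at 35510230 to 35510842 reached across the end of the gene, its midpoint 4.50 kb after the start, and was listed with 2 summits. A further 2 regions lay upstream, 15.4 kb before the start (294 bp, 35490457 to 35490750) and 20.1 kb before it (187 bp, 35485847 to 35486033). The region of 187 bp was nearer to H2-Q10, a class I histocompatibility gene, at 11.4 kb.

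Beyond Pou5f1 the regions thinned out. A region of 286 bp at 35543369 to 35543654 lay inside Cdsn, 410.5 bp after its first start and 37.5 kb after that of Pou5f1. The last, 243 bp at 35593895 to 35594137, was 88.0 kb after the Pou5f1 start, inside the noncoding RNA Gm41577, with Gm9573 as its nearest protein-coding gene at 23.9 kb. Between the gene and Cdsn lie Tcf19, a putative transcription factor, Cchcr1, a coiled-coil protein, and Psors1c2, and none of them held a region. Tcf19 had the 3 regions nearest to Pou5f1 within 10 kb, because its span begins 1.95 kb beyond Pou5f1. No region was assigned to a single gene here. Of 13 protein-coding genes wholly within the window, 2 held a region by its midpoint, Pou5f1 and Cdsn. Over all protein-coding genes, the number of midpoints inside the span had a median of 0 and a 95th percentile of 1. On the H2-Q side the first 130 kb of the window were empty of regions. The H2-Q genes are close copies of each other, and mappability there was not examined.

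At Nanog, the asynchronous regions fell into 3 groups, at Dppa3, at Nanog and inside Slc2a3. The promoter region, 471 bp at chromosome 6, 122707154 to 122707624, had its midpoint 0.1 kb before the start. The widest region, 585 bp at 122702560 to 122703144, was 4.64 kb before the start and was listed with 2 summits. No region had its midpoint inside Nanog, whereas 1 did in Pou5f1. A region of 453 bp at 122624468 to 122624920 lay 82.8 kb before the Nanog start and 1.73 kb outside Dppa3, which encodes the maternal and germ cell factor Stella. No region was listed in the 77.6 kb between it and the widest region.

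Slc2a3, the gene of the neuronal-type glucose transporter, held 4 regions, 37.5 to 63.0 kb after the Nanog start. They were 200 bp (122744873 to 122745072), 214 bp (122765159 to 122765372), 233 bp (122766086 to 122766318) and 434 bp (122770297 to 122770730) wide. The last 3 lay within 5.57 kb of each other, and 713 bp separated the closest pair. Nanog, Dppa3 and Slc2a3 thus had the same 7 regions within 150 kb, and their counts are not independent. Gdf3, which encodes a growth factor of the TGF-beta family, and Apobec1, a cytidine deaminase, had no region inside and 1 each within 50 kb, the region at Dppa3. Of 7 protein-coding genes wholly within the window, Slc2a3 was the only one to hold a midpoint, and Foxj2 and C3ar1 had none within 10 kb. The median over all protein-coding genes was also 0 midpoints inside the span.

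**Figure D2:**
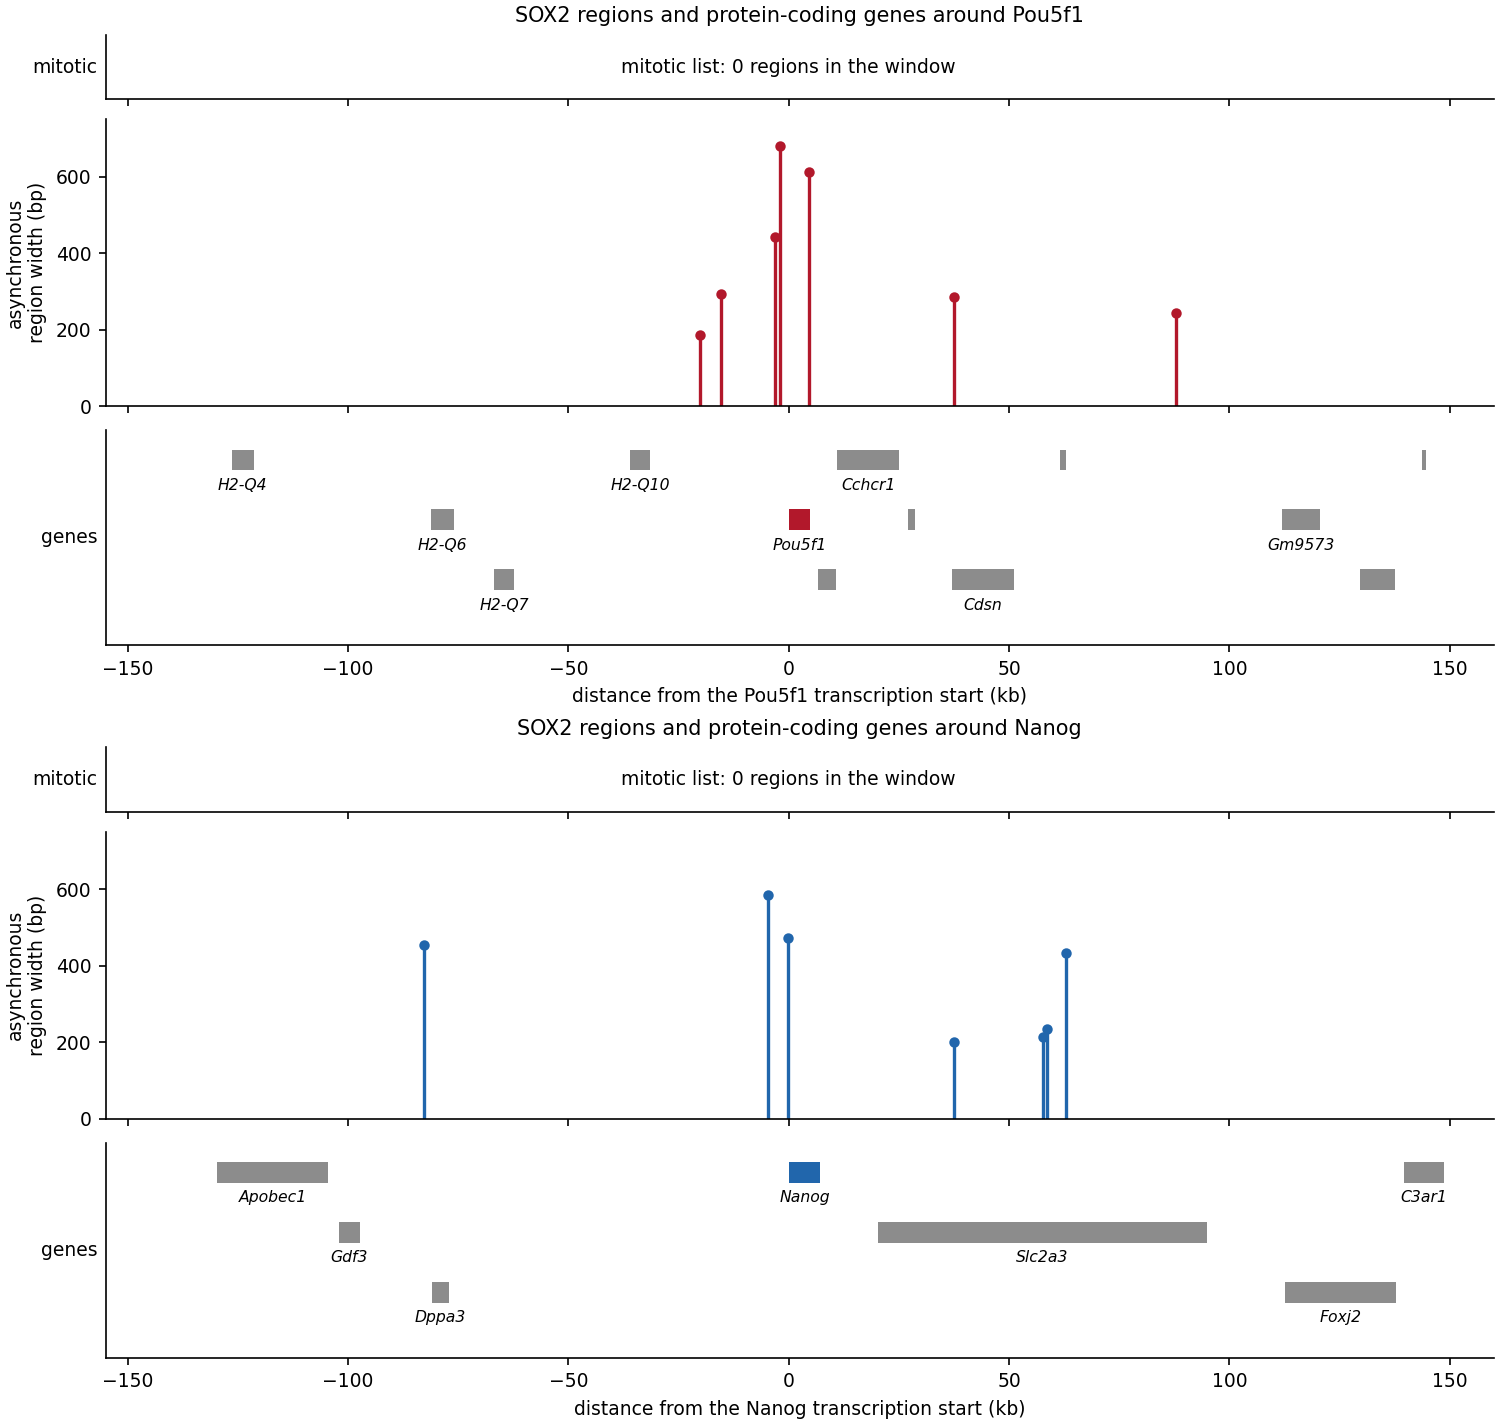
Maps of the 150 kb on either side of Pou5f1 (upper 3 panels) and Nanog (lower 3 panels), with distance from the transcription start in kb on the x axis. Within each set, the mitotic panel is empty, each line in the asynchronous panel is a region placed at its midpoint with its width in bp as height, and bars below are protein-coding genes wholly within the window, some of them named. The widest regions stand within 5 kb of each gene.

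The regions nearest the genes were mostly wider than the others. Of the 14 regions, 5 had their midpoint within 5 kb of the gene span, and they were 441 to 679 bp wide, at width percentiles 84.9 to 98.4 of the asynchronous list. The other 9 were 187 to 453 bp wide, at percentiles 6.47 to 86.3. The medians were 585 bp for the near regions and 243 bp for the others. Over the whole list, 5990 regions inside or within 5 kb of a protein-coding gene had a median of 284.5 bp and 4361 further away had 296 bp. That split is by any gene, and regions counted here among the other 9, such as those inside Slc2a3 and Cdsn, are near a gene by it. Width is not a measure of occupancy. The 14 regions had a median width of 364 bp against 289 bp for the list, and 8 of them were wider than the list median, 4 at each gene.

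**Figure D3:**
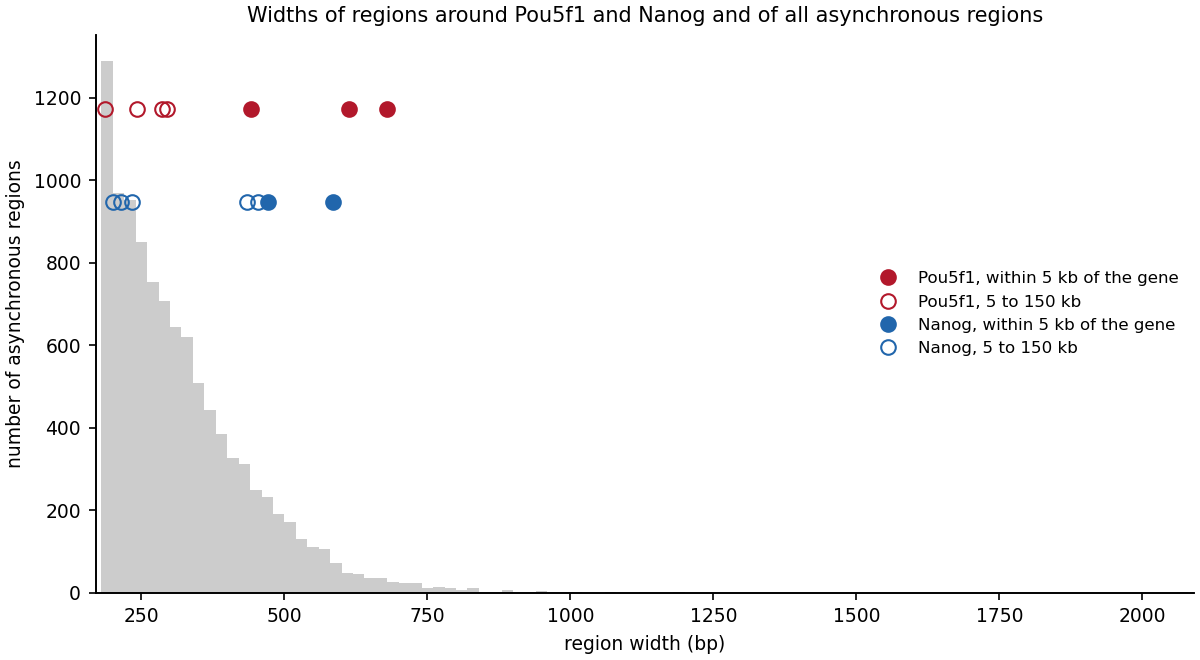
Widths in bp on the x axis; grey bars count all asynchronous regions in steps of 20 bp (y axis), and circles above mark the 7 regions of Pou5f1 and the 7 of Nanog, at heights without meaning. Filled circles, regions within 5 kb of the gene span, lie at 441 bp or above, and open circles, the other regions, lie between 187 and 453 bp.

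The 2 loci stood high among genes in the number of asynchronous regions around them. Both genes had a region within 150 kb, as did 73% of 21887 protein-coding genes, and within 50 and 10 kb, as did 45.5% and 23.8%. With 7 regions within 150 kb, both were among the 1.91% of protein-coding genes with 7 or more, and 98.1% had fewer; the median was 1 and the mean 1.79. Among genes within 2-fold of their own length, 0.943% had as many at the length of Pou5f1 and 1.09% at that of Nanog. The shape of the rise with distance differed. Pou5f1 had 3 regions within 10 kb and 6 within 50 kb, more than 99.4% of genes at 50 kb. Nanog had 2 within 10 kb and 3 within 50 kb, more than 92.6% of genes at 50 kb, and reached 7 only with the regions in Slc2a3 and at Dppa3.

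**Figure D4:**
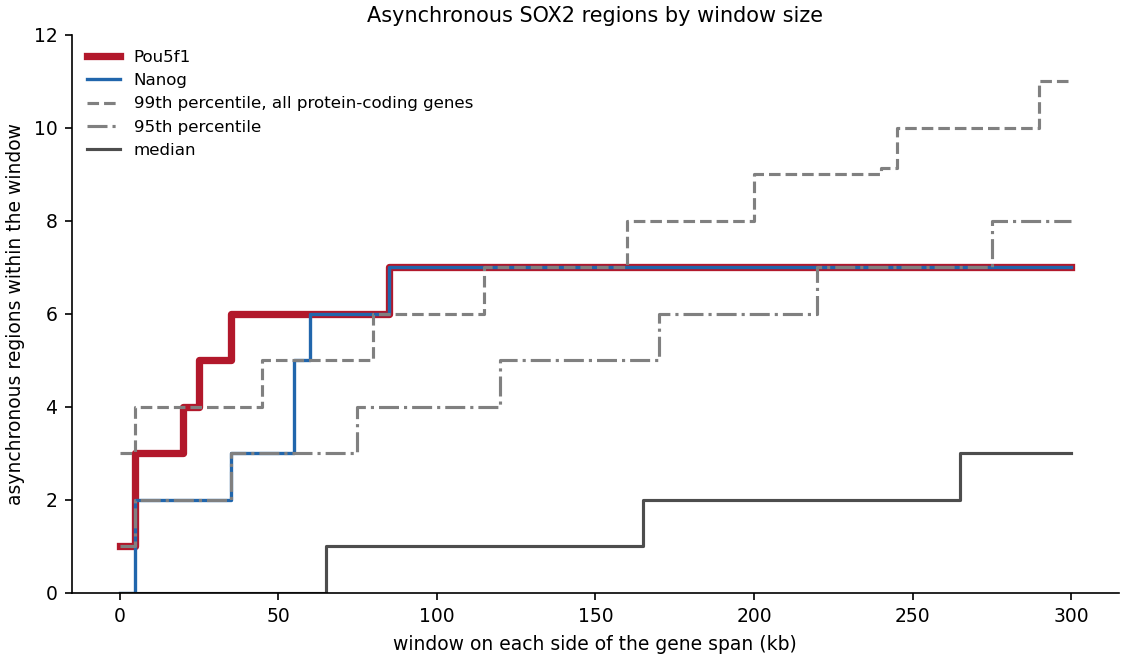
Number of asynchronous regions (y axis) within a growing window on each side of the gene span (x axis, kb) for Pou5f1 (thick line) and Nanog (thin line), with the median, 95th and 99th percentiles of all protein-coding genes. Both genes reach 7 regions within 100 kb and stay at 7 up to 300 kb, while the percentiles go on rising.

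On 1 side of each group, the stretch without regions was longer than the upper quartile of gaps in the list. Before the first Pou5f1 region the list held nothing for 535 kb, and after the last for 243 kb. At Nanog the empty stretches were 258 kb before and 562 kb after. The median gap between neighbouring regions was 114 kb over the list (interquartile range 36.8 to 280 kb), and 11.0% and 10.3% of gaps were at least as long as the longer ones at Pou5f1 and Nanog. The shorter ones lay within the interquartile range, with 28.6% of gaps at least as long at Pou5f1 and 27.2% at Nanog. Within the groups, the gaps ran from 0.685 to 50.2 kb at Pou5f1 and from 0.713 to 77.6 kb at Nanog. Since the window chose the regions, short gaps among them are no separate feature. The stretches at the ends are likewise the gaps in which the window edges fall. An edge falls more readily in a long gap than in a short one, so their rank among all gaps is not read as a feature either. Of 175 genes with 7 or more regions within 100 kb, 19 had none from 100 to 300 kb, Pou5f1, Nanog and the Pou5f1 neighbours Tcf19, Cchcr1 and Psors1c2 among them. These distances were chosen after the values were seen. Numbers in the peak names rise along each chromosome and 33.6% of them are not in the list. Of the missing numbers, 3 fall in the empty stretch before the first Pou5f1 region, 1 in that before the first Nanog region, and 1 (12528) in the gap between the regions at Dppa3 and Nanog, so that the gaps refer to listed regions.

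Within the wider pluripotency network, the 2 genes were among those with the most asynchronous regions within 150 kb, which for Nanog did not hold within 50 kb. Of 30 listed genes of the network, 28 had an asynchronous region within 150 kb (93.3%), against 73% of all protein-coding genes, and the median was 4 regions against 1 for all protein-coding genes. The list was chosen with earlier results of these data known, and Pou5f1 and Nanog are among its 30 genes. It also includes the Nanog neighbours Dppa3, Slc2a3, Gdf3 and Apobec1, whose regions are also counted for Nanog. Without these 4, 24 of 26 genes had a region (92.3%) and the median was 4. Sox2 itself had 9 regions, Jarid2, a Polycomb cofactor, and Mycn, a MYC family factor, had 8 each, and Dppa3, Nanog, Pou5f1 and Slc2a3 followed with 7. Within 5 kb, Esrrb, an orphan nuclear receptor, had 5 regions and Slc2a3 and Tfcp2l1 had 4 each, against 3 at Pou5f1 and 2 at Nanog and Sox2. Within 50 kb, Jarid2 had 7 regions, Pou5f1, Esrrb and Slc2a3 had 6 each, and Nanog and Sox2 had 3 each. At the low end, Tdgf1, a Nodal co-receptor, and Stat3, which acts downstream of leukemia inhibitory factor, had none within 150 kb. Dppa2, Dppa4, Nr0b1 and Zfp42 had 1 each. The sum over the 30 genes was 126, from 103 distinct regions, since neighbours such as Nanog and Dppa3 share theirs. A mitotic region lay within 150 kb of 1 of the 30 genes, Lefty1, a Nodal antagonist, at 142 kb (chromosome 1, 180793071 to 180793198). Among all protein-coding genes the share was 1.95%, so this single gene is not read as a feature of the network.

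**Figure D5:**
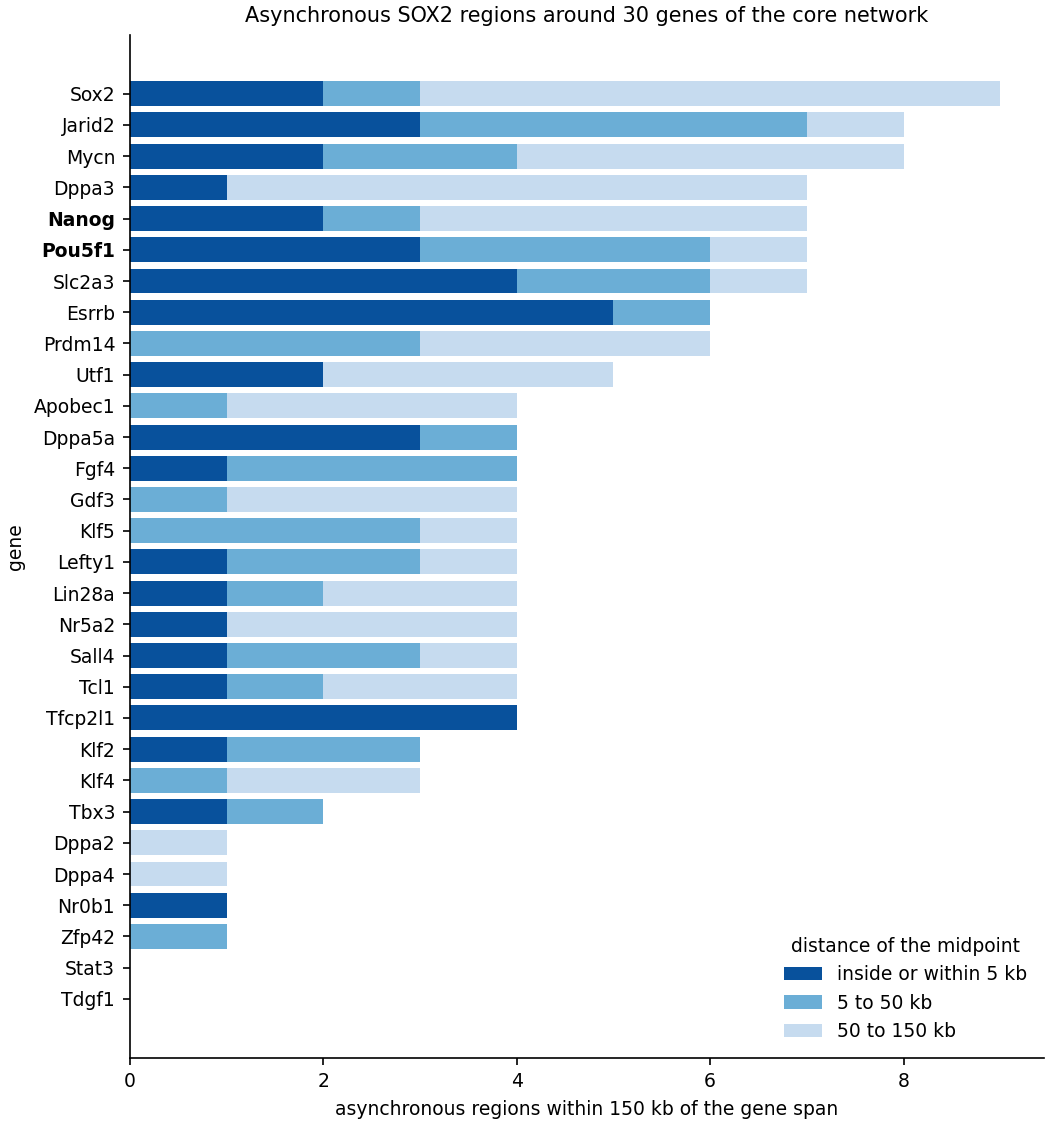
Asynchronous regions within 150 kb of each of 30 genes of the pluripotency network (x axis, number of regions; genes on the y axis in order of their total), with shades for the distance of the midpoint from the gene span. Pou5f1 and Nanog, in bold, have 7 each, and Sox2 has 9.

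No other gene of this list had exactly the pattern of Pou5f1 or Nanog, though some came close. Regions were counted inside the span or within 5 kb, from 5 to 50 kb and from 50 to 150 kb, and patterns were compared by the summed difference of the 3 counts, in the asynchronous list alone. Pou5f1 had 3, 3 and 1 regions, and 5 other genes had exactly these counts. They were Ctnnbl1, Eps8, Fam189a2, Kazn and Mdm1, with spans of 27.5 to 172 kb against 4.746 kb for Pou5f1. Nanog had 2, 1 and 4 regions, a pattern shared by 7 other genes, of which the first 5 by the rule were Dgkg, Dgki, Dido1, Fnbp1 and Fscn1. Their spans were 12.8 to 464 kb against 7.145 kb for Nanog. A longer span takes in more sequence at the same distance classes. Within a summed difference of 1 there were 29 genes for Pou5f1 and 86 for Nanog. In the network list, Jarid2 (3, 4 and 1 regions) came close to Pou5f1 and Mycn (2, 2 and 4) to Nanog.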

How the data were processed

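Per the labels, SOX2 ChIP and input libraries were made from mitotic and asynchronous cells, 12 in all. The submitters' processing notes name Bowtie2 (2.2.1), MACS2 and mm10; the version of MACS2 is not given in the sources used here. The authors, going by the deposited names, called ChIP against input on 3 replicates together and took out blacklisted regions. The deposited values are starts and ends in bp with a name (other unit), without score, fold, p-value or read count. Depth is unknown.

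Starts were shifted to count from 1. Of 10532 asynchronous entries, 181 repeated coordinates and were merged; 84 mitotic entries stayed. Distances run from the midpoint to RefSeq gene spans (GRCm38.p6) of 21887 protein-coding genes. Strand and promoter windows came from a RefSeq table of 32851 windows. Counting was checked on simulated regions planted around 200 genes. Python 3.11.15, numpy 2.4.6, pandas 2.3.3 and scipy 1.17.1 were used. Percentiles of width count ties at mid rank.

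Named genes were the 2 members, the nearest genes of their regions, 4 Nanog neighbours, the extremes of the network list (up to 5 each) and the 5 genes most alike in pattern, with further genes named after their values were seen. The members, lists, motifs and rules were chosen with earlier results of these data known. Alternatives changed the window, the midpoint rule, the reference point, merging and width.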

Additional observations from a re-analysis of the deposited data

How the results depend on the processing

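Of 36 recomputed values over 8 results, 24 stayed and 12 moved. Those that stayed were within 1.5 times of the reported count or, for percentiles, equal to the reported value. The causes were not tested beyond the construction of each setting. The count at each gene, 7, stayed at 7 with windows of 100 and 200 kb, with any base in the window and with distance from the transcription start, and was 8 with every entry counted. It fell to 3 at Pou5f1 and 2 at Nanog within 10 kb, to 3 at Nanog within 50 kb, and to 4 at both among regions wider than the median. The percentile, 98.1, became 99.4 for Pou5f1 and 92.6 for Nanog within 50 kb, and 96.8 for both among the wider regions. The mitotic count was 0 at both genes at every window up to 200 kb. These zeros are among the values that stayed, but they were fixed in advance. Smaller windows lie inside that of 150 kb, and the nearest mitotic regions were 4.04 Mb from Pou5f1 and 1.58 Mb from Nanog. Of 30 network genes, 26 had a region within 50 kb (86.7%) and 21 within 10 kb (70%). The shares over all protein-coding genes were 45.5% and 23.8%. When the Nanog neighbours were left out, 24 of 26 genes had a region within 150 kb, a setting chosen after seeing the data. Shorter spellings of the composite, chosen after seeing the data, were found in 12 promoter windows without its first 2 letters, 9 without its last 2 and 96 with the first 10 letters; each included both Nanog windows and neither of Pou5f1. Replicates could not be left out, since the lists pool them. No paired analysis was possible because the lists carry no values for single replicates.

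Depth, peak scores and thresholds other than the authors' were not analysed here, and the lists were called at different q-values, so that counts between the conditions are not on an equal footing.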

Other observations

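The composite spelled without its first 2 letters (TTGT, any single base, then ATGCAAA) was found at Nanog and a few other promoters. Of the 12 windows that held it, 7, of 6 genes, overlapped an asynchronous region, where 1.56% of all windows did. Both counts include the 2 Nanog windows, which share a single site. Besides Nanog, the genes were Nrarp, a feedback regulator of Notch signalling, Astn1, Pipox, Gm11149 and Gm34201. The Nrarp window also overlapped a mitotic region, as did 4 of 32851 windows in all (0.0122%). The other shortened spellings overlapped an asynchronous region in a smaller share of their windows. Without the last 2 letters it was 3 of 9 windows, and with the first 10 letters 10 of 96. Both Nanog windows are among them each time. These spellings were chosen after the data were seen, and no test was made.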
